A study of Mus musculus with 7 samples.

Results

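The genes described here encode 9 proteins of the nuclear lamina and the inner nuclear membrane: Lmna, Lmnb1, Lmnb2, Lbr, Tmpo, Lemd3, Banf1, Sun1 and Sun2. They were chosen by name, with earlier results of these data known, from 21883 protein-coding genes of the RefSeq table (assembly GRCm38.p6, of which mm10 is another name). The study applied CUT&RUN, in which an antibody on chromatin directs a nuclease that releases the DNA around its target, to fibroblast lines derived independently from mouse embryos of a single colony and called iMEF. Of its 7 libraries, Lamin B1 accounted for 2 and IgG, the control antibody, for another 2. The histone marks H3K9me2 (2 libraries, made with separate antibodies) and H3K14ac (1 library) accounted for the rest. No treatment or genotype was named in the sample labels, and wild type stands only in the name of the deposited list of domains. The values below come from that list, which gives 1437 lamin-associated domains (LADs) by start and end and carries no signal per library. No position has a replicate error, the read depth is unknown, and differences are described without a test.

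The lamina is a meshwork of intermediate filament proteins under the inner nuclear membrane. Lamins A and C come from Lmna, and the B-type lamins from Lmnb1 and Lmnb2. The lamin B receptor, LAP2 (from Tmpo) and MAN1 (from Lemd3) are inner membrane or lamina-bound proteins that hold chromatin to this meshwork, and the small DNA-binding protein BAF (from Banf1) bridges DNA and the LEM domain that LAP2 and MAN1 share. SUN1 and SUN2 span the inner membrane and join the lamina to the cytoskeleton through KASH-domain proteins of the outer membrane. LADs are the stretches of chromatin that lie against this structure and are mostly poor in active genes. Lamin B1, the only lamin for which the study has an antibody, is itself the product of a gene in the set. That the domains come from its libraries was inferred from the name of the list.

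All 9 genes lay wholly outside LADs. Among all 21883 protein-coding genes, 23.8% had their midpoint in a LAD and 25.1% overlapped a LAD at any base, so a place outside was the common state. What varied was the distance to the domains. The distance from the nearer gene end to the nearest LAD ran from 89.0 kb for Tmpo to 6818 kb for Sun2. In ascending order it was 89.0 kb for Tmpo, 230.4 kb for Lmnb1, 673.8 kb for Lemd3, 775.1 kb for Lmnb2, 776.2 kb for Sun1, 2238 kb for Lmna, 2387 kb for Banf1, 3652 kb for Lbr and 6818 kb for Sun2. Lmnb2 and Sun1 differed by less than the 2.5 kb steps in which the domain lengths fall, so their order is not resolved. A LAD lay within 250 kb of 2 of the 9 genes, Tmpo and Lmnb1, as it did for 25.0% of genes in gaps between LADs. For 4 of the 9, Lmna, Banf1, Lbr and Sun2, the nearest LAD was over 2 Mb away, against 20.4% of genes in gaps. Banf1 has a LAD on its right side only and so lies in no gap, but is counted among the 9 here and in the median that follows. Of the 8 genes in gaps, those over 2 Mb away were Lmna, Lbr and Sun2. The median of the 9 genes was 776.2 kb, and that of the 15629 protein-coding genes that lay wholly in a gap between neighbouring LADs was 760.3 kb. The median of the 9 depends on which gene is left out and on the short domains. It was 1507 kb over the 8 genes without Lmnb1. Leaving out Lmna, Banf1, Lbr or Sun2 instead keeps it between the 775.1 kb of Lmnb2 and the 776.2 kb of Sun1. With only LADs of at least 500 kb it was 1645 kb over the 9 genes, beside 1124 kb over all genes in gaps.

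**Figure D1:**
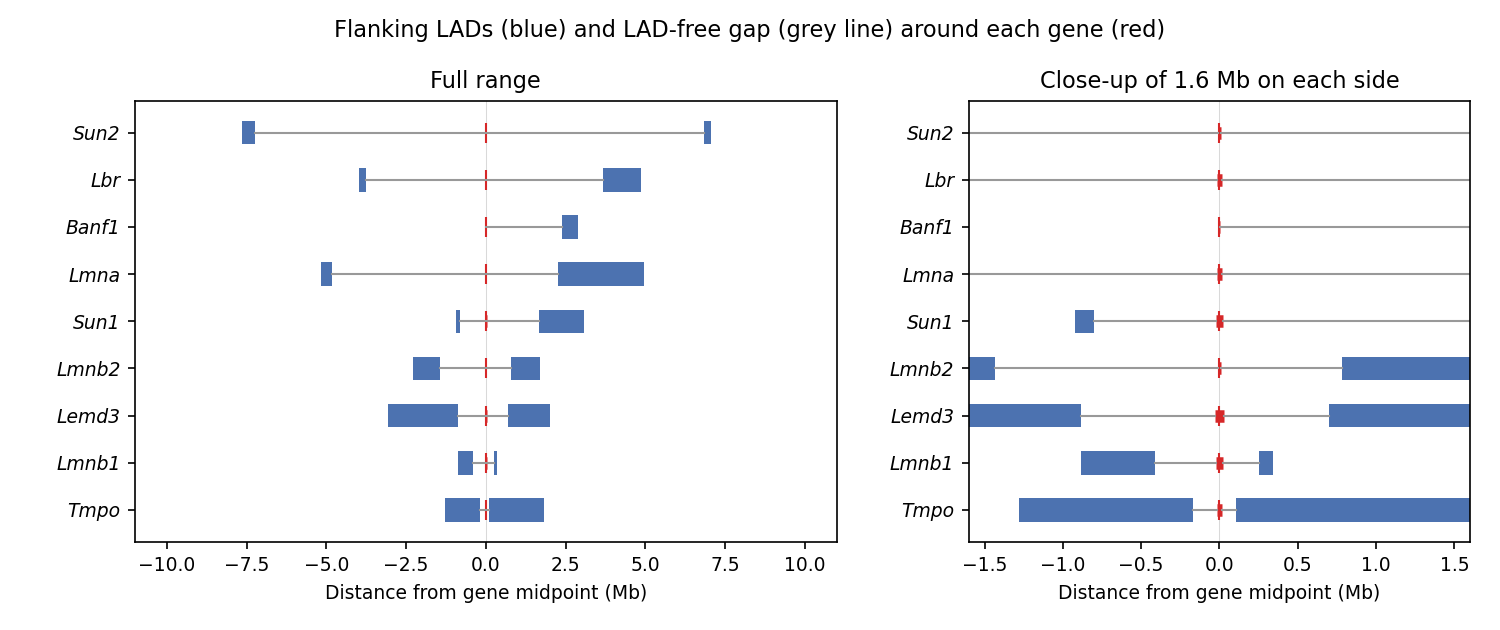
Position of the flanking LADs (blue bars) and of the LAD-free gap (grey line) relative to the midpoint of each gene (red), in Mb, over the full range on the left and close to the gene on the right. Tmpo has LADs 89.0 and 154.3 kb away, whereas the nearest LAD of Sun2 is 6818 kb away, and Banf1 has a LAD on its right side only.

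Gap lengths also varied widely. A total of 8 genes had a LAD on both sides, and the gap around them measured 0.277 Mb for Tmpo, 0.662 Mb for Lmnb1, 1.58 Mb for Lemd3, 2.22 Mb for Lmnb2, 2.47 Mb for Sun1, 7.08 Mb for Lmna, 7.41 Mb for Lbr and 14.1 Mb for Sun2. Their median of 2.34 Mb was below the 4.04 Mb at which the median gene in a gap lay, and 3 of the 8 genes exceeded that value. With only LADs of at least 500 kb the order was the opposite, 6.21 Mb for the 8 genes and 5.63 Mb for all genes in gaps. Tmpo and Lmnb1, 2 of 8 genes, were in gaps of at most 1 Mb, where 14.5% of all genes in gaps were found. Lmna, Lbr and Sun2 were in gaps of at least 7 Mb, as were 24.5% of all genes in gaps. Banf1 lay before the first LAD of chromosome 19 and therefore has no gap length.

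Within its gap, each of the 8 genes was nearer to the middle than to an edge. The nearest distance can at most equal the distance of a gene placed exactly at the centre of its gap, and the 8 genes reached between 63.4% (Lmna) and 98.9% (Lbr) of that maximum, with a median of 73.9%. Over all genes in gaps the median was 50.5%, and 50.6% exceeded 50%, compared with 8 of 8 here. This measure and its threshold were chosen after the distances had been seen, and the 8 of 8 is given as a description. With only LADs of at least 500 kb, the count was 6 of 8, because Lmnb1 (45.2%) and Sun1 (48.4%) fell under 50%. Ranks by distance to a LAD, among genes wholly in the same gap, were uneven. They were 1 of 67 for Lbr, 2 of 13 for Lemd3, 3 of 7 for Lmnb1 and 13 of 300 for Sun2. Sun1 was 17 of 40, Lmnb2 38 of 126 and Lmna 50 of 147. Tmpo was 3 of 3, at 89.0 kb beside 89.4 kb for Ikbip, a difference below the 2.5 kb steps.

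**Figure D2:**
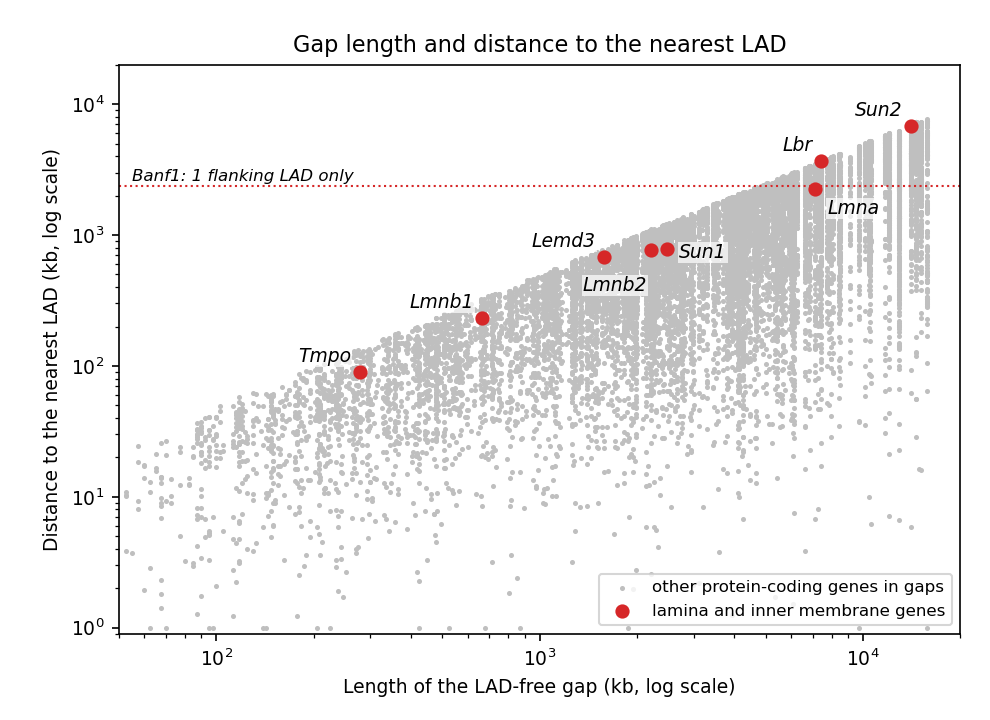
Distance from a gene to the nearest LAD (kb, log scale) against the length of the LAD-free gap that holds it (kb, log scale). Red points are the 8 genes with a LAD on both sides, the dotted line is Banf1, and grey points are all other protein-coding genes in gaps, with distances under 1 kb drawn at 1 kb. The upper edge of the grey cloud is the centre of the gap, and the red points lie in the upper part of the cloud, from Tmpo (89.0 kb) to Sun2 (6818 kb).

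The promoters of these genes were compared with the promoters of genes in LADs, since the list allows each start site to be placed inside or outside a domain. RefSeq promoter stretches (GRCm38.p6) of 300 bases, from 250 before to 50 after the start, were matched for 8 of the 9 genes, all but Lmnb1. Where the table has several starts, the first was used. For Lmna and Tmpo that start lies 6.58 and 10.1 kb inside the gene, counted from its outer 5′ end, and for the other 6 genes it lies within 0.073 kb of that end. The second listed starts of Lmna and Tmpo lie farther inside, so no stretch at the outer 5′ end of these genes was counted. The 250 bases before the start are shown for the gene nearest to a LAD (Tmpo), a gene at the centre of a long gap (Lbr), the gene with fewest CpG dinucleotides at the start used (Lmna) and, for contrast, Nup37, a nuclear pore gene whose start lies inside a LAD. Each is written from 5′ to 3′ on the strand of its gene, with CpG in capitals. The stretches are chr10:91171620-91171869 (minus strand) for Tmpo, chr1:181842402-181842651 (minus) for Lbr, chr3:88503353-88503602 (minus) for Lmna and chr10:88146742-88146991 (plus) for Nup37.
Tmpo: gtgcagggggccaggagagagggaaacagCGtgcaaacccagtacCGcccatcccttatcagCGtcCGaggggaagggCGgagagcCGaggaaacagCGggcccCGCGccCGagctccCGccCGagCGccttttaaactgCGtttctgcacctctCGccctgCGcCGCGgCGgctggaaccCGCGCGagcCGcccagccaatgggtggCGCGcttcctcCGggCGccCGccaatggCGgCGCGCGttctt
Lbr: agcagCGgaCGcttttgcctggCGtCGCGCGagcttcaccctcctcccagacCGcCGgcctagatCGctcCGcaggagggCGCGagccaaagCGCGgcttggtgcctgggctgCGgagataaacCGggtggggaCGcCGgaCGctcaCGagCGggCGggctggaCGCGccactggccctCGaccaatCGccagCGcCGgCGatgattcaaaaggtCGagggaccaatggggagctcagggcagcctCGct
Lmna: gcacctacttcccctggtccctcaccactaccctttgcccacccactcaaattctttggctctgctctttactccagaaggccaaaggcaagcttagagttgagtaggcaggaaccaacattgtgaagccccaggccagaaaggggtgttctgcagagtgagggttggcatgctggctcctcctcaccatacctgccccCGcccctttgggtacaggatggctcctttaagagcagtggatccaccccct
Nup37: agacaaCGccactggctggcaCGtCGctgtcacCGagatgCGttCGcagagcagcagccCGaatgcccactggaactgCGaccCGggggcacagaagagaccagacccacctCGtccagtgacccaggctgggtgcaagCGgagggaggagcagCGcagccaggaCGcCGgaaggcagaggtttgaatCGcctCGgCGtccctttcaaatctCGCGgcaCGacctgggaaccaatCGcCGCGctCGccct

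The capitals number 32 CpG for Tmpo, 31 for Lbr, 24 for Nup37 and 1 for Lmna in these 250 bases. Over the full 300 bases, the counts were 1 for Lmna, 24 for Lmnb2, 26 for Banf1, 36 for both Tmpo and Sun1, 39 for Sun2, 42 for Lbr and 45 for Lemd3. Their median was 36. At least 10 CpG were present in 7 of the 8, against 57.2% of 17491 promoters of protein-coding genes and 68.6% of those with their start outside LADs, where all 8 starts lie. The median was 17 CpG over the 13308 promoters whose start lay outside LADs and 2 CpG over the 4183 whose start lay in a LAD. Without olfactory and vomeronasal receptor genes, the latter was 4 CpG over 3046 promoters. The stretch at this start of Lmna, a gene 2238 kb away from a LAD, was below the median of both groups. At most 1 CpG was present in 36.6% of the promoters in LADs and in 4.81% of those outside. This start is 6.58 kb inside the gene, and the sequence at the outer 5′ end of Lmna was not measured. The counts depended on the start. At the second listed start, which 5 of the genes have, the count was 7 for Lmna, 4 for Sun1, 6 for Lmnb2, 17 for Tmpo and 42 for Banf1. In all 5 the second start lay farther inside the gene than the first. With these second starts, 5 of the 8 genes had at least 10 CpG.

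Short motifs were counted on both strands of the same 300 bases, at the first listed start only. The GC box, GGGCGG, which contains a CpG, was present in 8 of 8 promoters, in 46.3% of all and in 55.1% of those with their start outside LADs. It occurred 5 times in Sun2, 4 times in each of Tmpo and Sun1, 2 times in Lbr and 1 time in each of the others. The CCAAT box, CCAAT, was present in 6 of 8, in 39.0% of all and in 38.3% of those outside, with no match in Lmna and Lmnb2. TATAAA was found in 0 of 8, against 13.3% of all promoters, 9.51% of those with their start outside LADs and 25.6% of those with their start in a LAD. These are matches of letters, and binding was not measured.

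**Figure D3:**
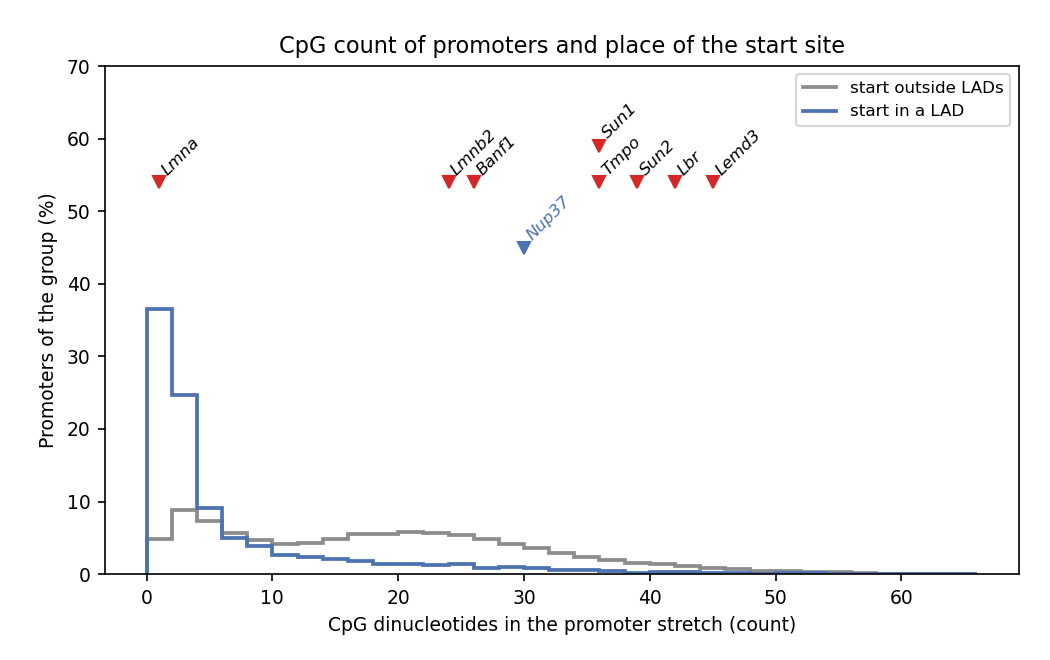
Share of promoters (%) by their number of CpG dinucleotides in 300 bases, for starts in LADs (blue line) and outside (grey line), in steps of 2 CpG. Triangles mark the count at the first listed start of each gene on the horizontal axis only, in red for the lamina and inner membrane genes and in blue for Nup37. Lmna is at 1 CpG and the other 7 red markers are at 24 or more. For Lmna and Tmpo the start used lies inside the gene.

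The 3 lamin genes occupied different surroundings. Lmna (gene 16905, chromosome 3, 88481148 to 88509932) encodes lamins A and C. To its left the nearest LAD ended 4818 kb away (83330847 to 83663345, 332.5 kb, holding no midpoint of a protein-coding gene). On its right a LAD of 2.72 Mb began after 2238 kb (90748324 to 93470814) and held 55 genes, with S100a7l2 the first from the border. The gap between them held 147 protein-coding genes, or 20.7 per Mb, and the direct neighbours of Lmna were Sema4a and Mex3a. Lmna ranked 50 of 147 by its distance to the nearest LAD, so many genes of the gap lay deeper in it.

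Lmnb1 (gene 16906, chromosome 18, 56707813 to 56753424) encodes lamin B1, and it had the nearest domains of the lamin genes. A LAD of 477.5 kb (55843840 to 56321338) ended 386.5 kb to its left, and one of only 87.5 kb (56983837 to 57071336) began 230.4 kb to its right. Neither held the midpoint of a protein-coding gene. The gap held 7 genes, in order Gramd3, Aldh7a1, Phax, Tex43, Lmnb1, Marchf3 and C330018D20Rik, of which Tex43 (266.3 kb) and Phax (241.2 kb) were farther from a LAD than Lmnb1. The short right domain sets the distance of Lmnb1. Without LADs under 100 kb the nearest distance became 385.4 kb, and with only LADs of at least 500 kb it became 1250 kb.

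Lmnb2 (gene 16907, chromosome 10, 80901363 to 80918245) encodes lamin B2. LADs of similar size flanked it, 842.5 kb on the left (78633332 to 79475828), 1426 kb away, and 902.5 kb on the right (81693322 to 82595818), 775.1 kb away. Both held genes, 15 on the left with the vomeronasal receptor gene Vmn2r82 nearest to the border, and 17 on the right with Gm51792. Between them 127 genes shared 2.22 Mb, which gave 57.3 genes per Mb, the highest density of the 8 gaps. Its neighbours were Timm13, which ended 0.393 kb away, and Gadd45b.

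Lbr (gene 98386, chromosome 1, 181815315 to 181842401), whose product binds B-type lamins and heterochromatin and is also a sterol reductase, stood almost exactly at the centre of its gap. The left LAD (177866938 to 178079437, 212.5 kb) was 3736 kb away and the right LAD (185494414 to 186686909, 1.19 Mb) 3652 kb. These distances differ by little compared with the gap, and of the 67 genes in it Lbr had the largest distance to a LAD, against a gap median of 2273 kb. The gap carried 9.04 genes per Mb. Dnah14 and Enah were its neighbours, and Parp1, which encodes a DNA damage sensor, lay in the same gap at 2489 kb from a LAD.

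Among the genes of LEM-domain proteins and BAF, Tmpo (gene 21917, chromosome 10, 91147571 to 91181752) was the closest of the 9 genes to LADs. Its gap of 277.5 kb separated a LAD of 1.11 Mb on the left (89885796 to 90993292) from one of 1.73 Mb on the right (91270792 to 93003285), at 154.3 and 89.0 kb from the gene. Of the 1416 gaps, 53.7% were shorter, but only 4.58% of genes in gaps lay in a shorter one. The gene filled 12.3% of the gap. It shared it with Ikbip, Slc25a3 and Apaf1, all on its left, of which Apaf1 crossed the border. No midpoint of another gene lay between Tmpo and the right LAD, where Nedd1 was the first, 1433 kb inside. The left LAD held 1 gene midpoint, that of Anks1b. With each LAD extended by 50 kb on both sides, Tmpo was still outside, at 39.0 kb.

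Lemd3 (gene 380664, chromosome 10, 120923411 to 120979396) encodes MAN1, which also restrains SMAD signalling. It lay between LADs of 2.18 Mb (117888208 to 120068200) and 1.32 Mb (121653196 to 122973191), 855.2 and 673.8 kb away. Its gap held 13 genes, 6 on either side of Lemd3, and Lemd3 was the second farthest from a LAD after its neighbour Msrb3 (712.9 kb). The median of those 13 genes was 176.9 kb. The gene midpoints nearest to the facing borders in the flanking LADs were those of Grip1 and D930020B18Rik.

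Lmnb2, Tmpo and Lemd3 share chromosome 10 without sharing a gap. Lmnb2 and Tmpo were 10.2 Mb apart with 6 LADs between them covering 44.0% of the interval. From Tmpo to Lemd3 the space was 29.7 Mb, with 13 LADs and 66.0% coverage.

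Banf1 (gene 23825, chromosome 19, 5364633 to 5366876) encodes BAF, which binds DNA and LEM-domain proteins. The first LAD of the chromosome began 2387 kb to its right (7753567 to 8243564, 490.0 kb, 4 genes, Slc22a26 first), and no LAD preceded it. Only 754 of the 21883 protein-coding genes lay wholly beyond the first or last LAD of their chromosome in this way. With only LADs of at least 500 kb its distance became 5734 kb.

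The SUN genes differed from each other. Sun1 (gene 77053, chromosome 5, 139200564 to 139249839) had a LAD of 122.5 kb on the left (138301875 to 138424373), 776.2 kb away, and a LAD of 1.41 Mb on the right (140894367 to 142309361), 1645 kb away. Its gap held 40 genes, and with only LADs of at least 500 kb the nearest distance was 1645 kb, since the left domain no longer counted. Sun2 (gene 223697, chromosome 15, 79724068 to 79742536) lay in the fifth longest of the 1416 gaps, which held 300 genes or 21.3 per Mb. The left LAD (72100954 to 72495952, 395.0 kb) was 7228 kb away and the right LAD (86560908 to 86803407, 242.5 kb) 6818 kb, and neither held the midpoint of a protein-coding gene. In that gap 12 genes were farther from a LAD, and over all genes in gaps 99.5% were nearer. Nup50, a nuclear pore gene, lay in the same gap at 1618 kb from a LAD.

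The share of LAD sequence in a fixed window restated the order over a wider scale. Within 1 Mb on each side of the midpoint, LADs covered 86.1% around Tmpo, 49.5% around Lmnb1, 20.8% around Lemd3, 10.8% around Lmnb2, 6.12% around Sun1 and 0% around Lmna, Lbr and Sun2. The median over 20704 genes with a complete window was 23.7%, and 90.2% of them had less coverage than Tmpo. No LAD base within 1 Mb was the state of 3 of 8 genes here and of 32.2% of all. Within 2.5 Mb the order changed for Lemd3, which at 65.3% exceeded Lmnb1 at 48.9% and came second to Tmpo at 73.7%. Lmnb2 had 34.9%, Sun1 19.1% and Lmna 4.94%, and Lbr and Sun2 again had 0%, beside a median of 34.2% over 20109 genes. Banf1 had no complete window.

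**Figure D4:**
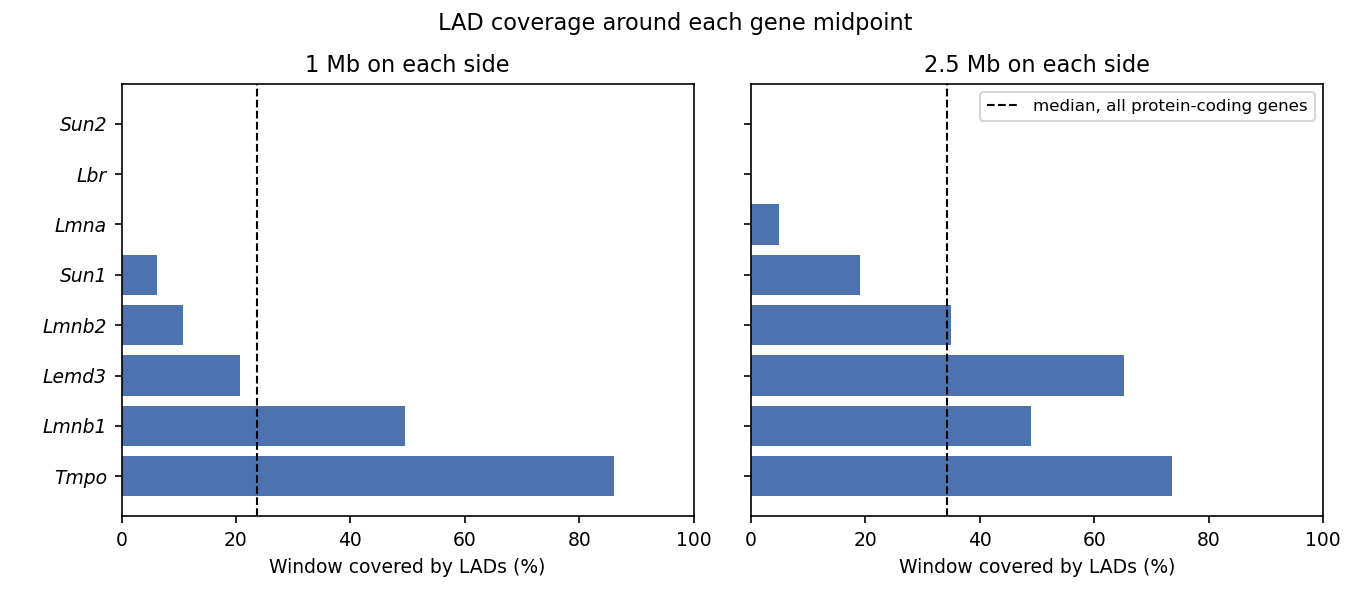
Share of the window covered by LADs (%) around the midpoint of each gene, for 1 Mb (left) and 2.5 Mb (right) on each side. Dashed lines are the medians over all protein-coding genes with a complete window, 23.7% and 34.2%. Tmpo and Lmnb1 lie above both medians, Lemd3 and Lmnb2 above the wider one only, and Lbr and Sun2 have no bar because their value is 0%.

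Genes on other chromosomes with the most similar pair of distances to the flanking LADs were looked up for the lamin genes. Likeness was the sum of the absolute log10 ratios of the left and right distances, so that 0 means equal distances. For Lmna it was Nr4a1 on chromosome 15 (5013 and 2236 kb, sum 0.02), for Lmnb1 it was Nfkb1 on chromosome 3 (389.0 and 236.2 kb, sum 0.01), and for Lmnb2 it was Ccdc188 on chromosome 16 (1467 and 779.3 kb, sum 0.01). The measure rests on 2 distances from a single list, and between 14898 and 15245 genes were candidates.

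Genes that work with the lamina were placed in the same way, as 7 lists with 67 genes. Only Nup37 had its midpoint in a LAD, which is 1 of 67 (1.49%) beside 23.8% of all protein-coding genes. Another 3, Sun3, Syne1 and Vrk1, crossed a border. The 63 genes wholly outside had a median distance of 1033 kb to a LAD. These counts are a description of the lists and were not tested.

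Nup37 (chromosome 10, 88146976 to 88178395), a subunit of the Y-shaped scaffold of the nuclear pore, lay wholly inside a LAD of 1402 kb (86920806 to 88323300) with 9 protein-coding genes, and its start was 176.3 kb from the nearer border. Its promoter, shown above, had 30 CpG in 300 bases, a count reached by 4.21% of promoters with their start in a LAD. The other 27 of 28 nuclear pore genes were outside, at a median of 825.8 kb. Tpr, which encodes a protein of the nuclear basket, was the nearest at 54.6 kb, and Nup188, of the inner ring, was the farthest at 5958 kb.

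Lamin processing comprised the farnesyltransferase subunits Fnta and Fntb and the enzymes Rce1, Icmt and Zmpste24, which act on the C-terminus of prelamin A or B-type lamins. All 5 were outside, from 129.8 kb for Zmpste24, the protease that matures prelamin A, to 3128 kb for Rce1. The 5 other LEM-domain genes were also outside, from 169.0 kb for Ankle2 to 3656 kb for Lemd2. Of the 3 other SUN-domain genes, Sun5 (2379 kb) and Spag4 (2845 kb) were far from LADs. The third, Sun3, had its start in a LAD of 2705 kb, with 3.35 kb, or 10.2% of the gene, inside the border.

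Syne1, which encodes the giant KASH-domain protein nesprin-1, is 530.5 kb long and overlapped 2 LADs by 82.1 kb in all, or 15.5% of its length. They measured 57.5 and 240 kb, and the start of Syne1 was in a LAD, 24.6 kb from the border. The other 5 KASH-domain genes ranged from 84.3 kb (Syne3) to 1931 kb (Kash5). Further inner membrane genes were all outside, 11 of 11, from 235.4 kb for Nemp2 to 5338 kb for Tor1b. Among 9 chromatin partners, Vrk1, the kinase that phosphorylates BAF, crossed the border of a LAD of 1837 kb with 38.0% of its length, and its start was 42.1 kb outside. The remaining 8 lay between 243.6 kb (Banf2) and 4133 kb (Cbx3) from a LAD.

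**Figure D5:**
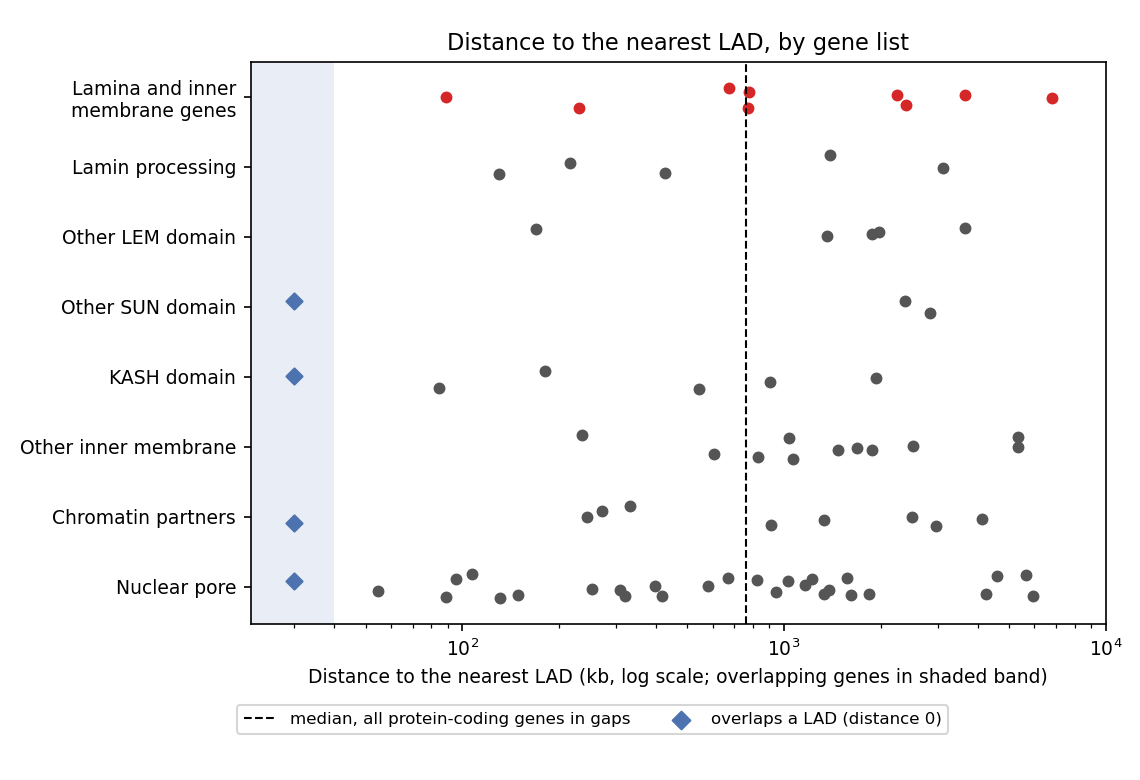
Distance from each gene to the nearest LAD (kb, log scale) for the 9 lamina and inner membrane genes (red) and the 7 lists of related genes (grey), with a small vertical scatter for legibility. Blue diamonds in the shaded band are the 4 genes that overlap a LAD, and the dashed line is the median of 760.3 kb over all protein-coding genes in gaps.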

How the data were processed

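CUT&RUN libraries were made from 500000 cells each, with the Lamin B1 antibody diluted 1 to 100 and the IgG antibody 1 to 50, per the labels' protocols. The deposited list gives LAD start and end positions in base pairs. Reads were aligned with Bowtie2 to mm10, per the submitters' processing notes. The domain caller, its threshold and the use of IgG or spike-in are not given in the sources used here. That the list pools both Lamin B1 libraries was inferred from the word merged in its name. Domain lengths fall in steps of 2.5 kb (to within 36 bp), which limits the precision of the borders, and no gap was shorter than 52.5 kb, so whether closer domains were joined is not known.

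Gene positions came from RefSeq (GRCm38.p6). Genes were placed by midpoint, and distances were counted between the nearest gene end and the facing border, with positions counted from 1 (Python 3.11.15, pandas 2.3.3). Placement was tested on simulated data. All 67 list genes were matched, Nup58 and Irag2 by their older symbols Nupl1 and Lrmp. Members and lists were chosen with earlier results of these data known. Named genes were all members, their neighbours in the gap, the first gene of each flanking LAD, list genes in or across a LAD and the nearest and farthest of each list; the other genes of the gaps of Lmnb1 and Tmpo, Parp1, Nup50 and Msrb3 were named after their values were seen. A gene that this rule names is not reported here. Alternatives changed the LAD set, the borders and the gene anchor.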

Additional observations from a re-analysis of the deposited data

How the results depend on the processing

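None of the 9 genes entered a LAD by midpoint under any of the 5 alternative LAD sets, by start site (8 genes, without Lmnb1) or by any overlap. Their nearest distances changed by over 2.5 kb in 14 of 45 recomputed values, of which 9 came from extending each LAD by 50 kb, which shortens every distance by construction. The median distance to the nearest LAD, 776.2 kb, became 1645 kb with only LADs of at least 500 kb, 726.2 kb with extended LADs, 800.8 kb from gene midpoints and 1511 kb from start sites. The last rests on the 8 genes with a listed start, whose median from gene ends was 1507 kb. The median gap of 2344 kb became 6215 kb with only LADs of at least 500 kb and 2244 kb with extended LADs. Joining LADs across 100 or 250 kb left both medians as they were. The count of list genes in LADs rose from 1 to 3 with extended LADs and to 4 with any overlap. The background share of 24.6% over genes between the first and last LAD of their chromosome became 32.9% with all annotated genes, 19.8% without olfactory and vomeronasal receptors and 26.0% with any overlap. The alternatives for the position within the gap and for the second start sites were added after seeing the data.

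No paired analysis was possible because 1 pooled list was used and no library has values of its own. The same holds for leaving out either Lamin B1 library. The depth is unknown, so how short domains such as the 87.5 kb LAD beside Lmnb1 would hold in single libraries was not tested.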
